A study of Homo sapiens with 8 samples.

Results

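The cytosolic ribosomal protein genes, which encode the protein building blocks of the cytoplasmic ribosome, were followed across 8 RNA sequencing libraries of MCF-10A cells. A gene was counted among them if it was protein coding, its symbol was RPL or RPS followed by a number with at most a short copy suffix (such as A, X or L1), or was RPLP0, RPLP1, RPLP2 or RPSA, and it had at least 10 counts in at least 2 libraries. Kinases named RPS6K and pseudogenes were left out. This gave 82 of the 60617 genes in the count table, 51 of the large subunit and 31 of the small subunit. Of the 87 protein-coding genes with such a name, 5 stayed under the count limit, namely RPL3L, RPL10L, RPS4Y1, RPS4Y2 and RPS18. All 82 passed the filter on low counts and were among the 17693 genes tested. Leaving out the 4 copies whose suffix carries a number or follows another letter (RPL7L1, RPL22L1, RPL26L1 and RPL36AL) gave 78 genes.

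MCF-10A is an established human cell line from breast epithelium that does not form tumours. Cells of 2 lines derived from it, labelled Empty and NeuT, were either left untreated or exposed for 12 h to 1 µM JG-98, a small molecule that inhibits Hsp70 chaperones. Each of the 4 groups had 2 libraries of poly(A)-selected RNA, and all groups share the MCF-10A background. What the NeuT cells carry, and whether a line is a pool or a clone, is not given in the sources used here, and nothing there says that the 2 libraries of a group came from separate cultures, so p-values measure the spread between these libraries.

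Ribosomal proteins are made in large amounts and are needed in matched numbers, because each ribosome takes up a fixed set of them together with ribosomal RNA. Most of their messages begin with a C followed by an unbroken stretch of pyrimidines, the terminal oligopyrimidine tract, through which growth signalling by mTOR controls their translation. A few ribosomal proteins have an additional gene copy that can take the place of the first, such as RPL22L1 for RPL22, RPL39L for RPL39 and RPS27L for RPS27. Free ribosomal proteins are clients of chaperones and of the proteasome, and RPL5 and RPL11, when not built into ribosomes, bind the ubiquitin ligase MDM2.

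The start of the message is the sequence these genes are known to share, and the 30 bases around the annotated start (15 on each side) are given for the members on which the comparison of the lines turns. Sequences were taken from RefSeq on GRCh38.p14 and run 5′ to 3′ on the strand of the gene. Capitals mark the longest run of C and T that begins with a C within 5 bases of the start and holds at least 5 bases.
RPL22: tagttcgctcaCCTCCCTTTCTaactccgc
RPL22L1: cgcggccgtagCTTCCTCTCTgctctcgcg
RPL39: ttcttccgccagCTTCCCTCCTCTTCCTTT
RPS27: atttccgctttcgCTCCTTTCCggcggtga
RPS27L: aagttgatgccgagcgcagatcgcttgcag
RPL27: ccggggtgaaaggttagcggaagtgtcctt
RPL31: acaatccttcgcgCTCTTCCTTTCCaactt
RPL37A: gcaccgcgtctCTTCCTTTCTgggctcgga
These windows lie at chr1:6199581-6199610 (RPL22), chr3:170870181-170870210 (RPL22L1), chrX:119791616-119791645 (RPL39), chr1:153990747-153990776 (RPS27), chr15:63157463-63157492 (RPS27L), chr17:42998404-42998433 (RPL27), chr2:101002274-101002303 (RPL31) and chr2:216498829-216498858 (RPL37A).

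RPL22, RPL22L1, RPL39, RPS27, RPL31 and RPL37A held such a run, that of RPL39 going past the end of the window shown, and the windows of RPS27L and RPL27 did not. RefSeq starts were at hand for 66 of the 82 members, and 46 of these 66 genes (69.7%) had a C at a listed start with at least 5 unbroken pyrimidines counted from that base on, whether or not the stretch also reached upstream, against 5.14% of the 27305 genes in the same table. A run beginning within 5 bases of a listed start was present in 54 members (81.8%) and in 25.2% of all genes. Among the 11651 tested genes with listed starts, these shares were 6.99% at the start and 28.6% within 5 bases. Only the coding strand was searched, and a window without a match says no more than that these letters are not in it. The median log2 difference between untreated NeuT and untreated Empty was 0.19 over the 54 members with such a run and 0.12 over the 12 without.

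The shallowest library held 37341458 counts and the deepest 56861971, both from treated Empty. The 82 members took 4.17% and 4.09% of all counts in the untreated Empty libraries (replicates 1 and 2 in this order, here and below), 4.49% and 4.25% in JG-98-treated Empty, 4.48% and 4.55% in untreated NeuT, and 4.73% and 4.18% in JG-98-treated NeuT. The untreated NeuT libraries lay above the untreated Empty libraries, and the treated NeuT libraries were far apart from each other. The identity of the cells was checked against marker genes. The basal keratins KRT5 (4958 to 8055 CPM, that is counts per library total after TMM scaling, a correction of library sizes) and KRT14 (2440 to 2946 CPM) and the epithelial cadherin CDH1 (873 to 1177 CPM) were high in all 8 libraries, TP63 was low at 2.70 to 9.44 CPM, and the leukocyte gene PTPRC was at 0 to 0.0705 CPM. The epithelial keratins KRT8 (1894 to 2219 CPM) and KRT18 (662 to 977 CPM) were high as well. Above TP63 lay the luminal hormone receptor gene ESR1, at 11.3 to 14.9 CPM, while PGR was at 0 to 0.0925 CPM. The endothelial gene PECAM1 was at 7.85 to 15.0 CPM. The fibroblast gene DCN ranged from 2.47 to 77.5 CPM while LUM stayed at 0 to 0.0557 CPM. What part the genes of other cell types have in the results was not tested. In bulk RNA a change in the amount per cell and a change in the mix of cells cannot be told apart.

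On the per-length scale (RPKM, counts scaled to library size and to the deposited gene length), the highest member was RPL8, with a mean of 1003 over the 8 libraries, and RPL13A with 748.8 and RPS12 with 740.4 were among those that followed. The first place was clear of the replicate spread, since in untreated Empty RPL8 stood at 897 ± 29.2 (SD, n = 2) and RPL13A at 693 ± 28.1. RPL13A and RPS12 could not be ordered in a fixed way, because RPS12 (659 ± 3.41) lay below RPL13A in untreated Empty and above it in untreated NeuT, at 802 ± 6.86 against 770 ± 6.61. The deposited length joins all annotated exons of a gene, retained introns included, so that 9845 bases were used for RPS29 and 8825 for RPS27L, and levels of such genes are understated.

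At the other end, 6 members had fewer than 10000 counts over all libraries. Among them were RPL17 (6895 counts), RPL39L (2664), RPS9 (1131), RPL36A (911) and RPS10 (290), and RPS18, which missed the count limit, had 4. Reads of near-identical copies and of overlapping genes cannot be assigned with certainty, so the values of RPL17, RPL36A and RPS10 are uncertain. Pseudogenes named after RPL36A held 27483 counts, which is 3017% of its own, those of RPS10 2413% and those of RPL17 1288%. RPS28, with 10621 counts of its own, is uncertain as well, since its pseudogenes held 1058% of these. The read-through gene RPS10-NUDT3 was the largest overlap of RPS10, whose exons were covered by other genes over 40.3% of their length. Around RPS18, 24 of the 37 protein-coding genes within 500000 bases had a mean of at most 3 counts (64.9%), around RPS9 25 of 33 (75.8%) and around RPL36A 12 of 19 (63.2%), against 30.6% of all protein-coding genes. Around RPS10 these were 2 of 12 (16.7%) and around RPL17 2 of 7 (28.6%), both below that share. How the counting of reads with several matches contributed was not tested. Over all members, pseudogene counts were a stable fraction, at 11.5 to 11.8 per 100 member counts in each of the 8 libraries.

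**Figure D1:**
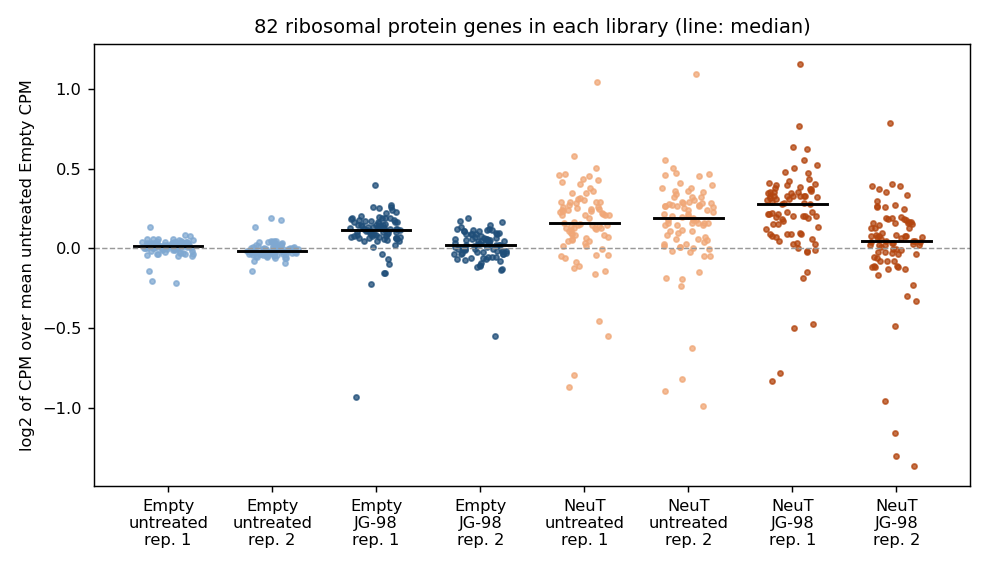
Each point is 1 of the 82 ribosomal protein genes in 1 library, as log2 of its TMM-scaled CPM over the mean of the untreated Empty libraries (TMM is a scaling of library sizes, vertical axis without further unit), and black lines are medians. The medians of the untreated NeuT libraries lie at 0.16 and 0.19, while those of the treated NeuT libraries are 0.28 and 0.05.

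Without drug, most ribosomal protein messages were somewhat more abundant in NeuT than in Empty, and a small number of alternative copies moved much further and in both directions. Of the 82 members, 41 rose and 3 fell in NeuT, 44 in all or 53.7%, at an adjusted p under 0.05 in edgeR's quasi-likelihood test with Benjamini-Hochberg adjustment over the 17693 genes tested. In the same comparison 42.0% of all tested genes were called, 21.2% higher and 20.8% lower, so the share of called members was not far above the background while the direction was uneven. The median log2 difference was 0.18 over the members and -0.02 over all tested genes, and the 76 members with at least 10000 counts had a median ratio of 1.14. Both untreated NeuT libraries lay above both untreated Empty libraries for 64 members and below them for 8, against 36.1% and 37.1% of all genes. Without Empty untreated replicate 2, 21 members rose and 2 fell (14.9% and 14.4% of all genes), and without NeuT untreated replicate 2, 27 rose and 2 fell (16.3% and 13.6%). With total counts in place of TMM scaling, 27 rose and 4 fell (17.4% and 25.5% of all genes) and the median was 0.11, with that of all genes at -0.08.

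Both subunits took part. Of the 51 large subunit genes 25 rose and 3 fell, with a median of 0.17, and of the 31 small subunit genes 16 rose and none fell, with a median of 0.19. The 39 members with exon overlap under 10%, pseudogene counts under 10% of their own and at least 10000 counts had 23 rises and 1 fall and a median of 0.25. Apart from RPS27L the rises were small, and the largest of them was 0.54 on the log2 scale.

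**Figure D2:**
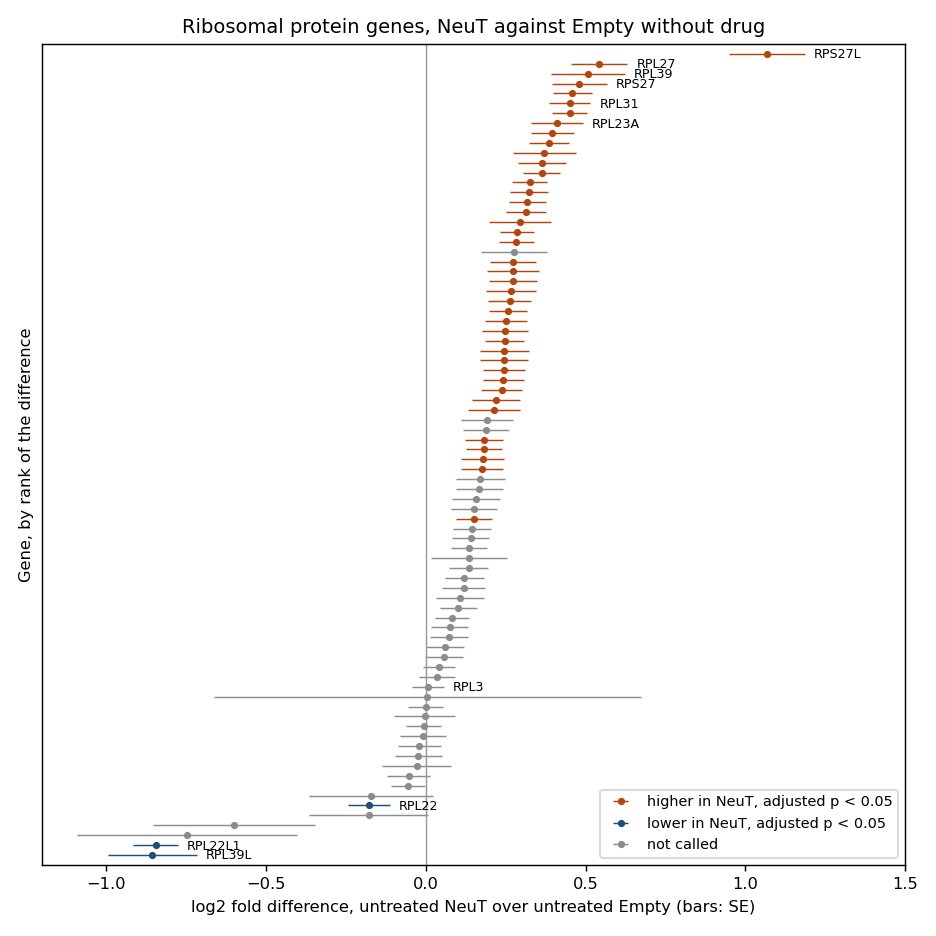
Log2 difference of untreated NeuT over untreated Empty for the 82 genes, ranked, with bars for the standard error, colour for the call (41 higher and 3 lower) and names at some of the genes described in the text. RPS27L stands alone at the top with 1.07, and RPL22L1 and RPL39L stand at the bottom near -0.85.

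The largest rise was that of RPS27L (ENSG00000185088, hg38, chromosome 15, 63125872 to 63158021), a copy of the small subunit gene RPS27. It measured 104.8 and 105.5 CPM in untreated Empty, 119 and 100.2 in treated Empty, 217 and 224 in untreated NeuT, and 234 and 181 in treated NeuT. All 4 NeuT libraries were above all 4 Empty libraries. The log2 difference without drug was 1.07 ± 0.12 (SE; adjusted p = 9.1e-05 in edgeR's quasi-likelihood test), a rise of 109.6%. Its parent RPS27, a zinc-finger protein of the small subunit, rose as well, from 138 and 147 CPM to 202 and 195, a log2 difference of 0.48 ± 0.09. Per length, RPS27L stood at 8.63 ± 0.35% of RPS27 in untreated Empty and 13.0 ± 0.62% in untreated NeuT (SD, n = 2), so the copy gained on its parent. With pseudogene counts added to RPS27 these values were 6.17 ± 0.27% and 9.58 ± 0.45%. These percentages rest on deposited lengths of 8825 bases for RPS27L and 1028 for RPS27, although both have 252 coding bases. By mean CPM, RPS27L was at 105 against 142 for RPS27 in untreated Empty and at 220 against 198 in untreated NeuT.

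RPL22L1 (ENSG00000163584, chromosome 3, 170864875 to 170870208) moved the other way. This copy of the RNA-binding large subunit protein RPL22 gave 104.5 and 107.9 CPM in untreated Empty, 117.5 and 104.3 in treated Empty, 61.3 and 57.1 in untreated NeuT and 59.5 and 54.7 in treated NeuT. The highest NeuT library was below the lowest Empty library by a wide margin. The log2 difference without drug was -0.84 ± 0.07 (adjusted p = 3.7e-08 in edgeR's test), a fall of 44.3% of the Empty level. RPL22 itself gave 90.4 and 92.2 CPM in untreated Empty and 81.4 and 80.1 in untreated NeuT, a log2 difference of -0.18 ± 0.06 (adjusted p = 0.035). The fall of RPL22 rests on its own counts alone, since pseudogenes named after it held 158% of its counts and adding them left a difference of -0.0013 with an adjusted p of 0.99 in edgeR's test. The call was lost in 6 of 16 alternatives, this one among them. Per length, RPL22L1 stood at 265 ± 2.40% of RPL22 in untreated Empty and at 167 ± 6.44% in untreated NeuT, and with pseudogene counts added to RPL22 at 107 ± 1.49% and 60.5 ± 4.31%. These percentages rest on deposited lengths of 2051 bases for RPL22L1 and 4665 for RPL22, while their coding lengths are 366 and 384. By mean CPM, RPL22L1 was at 106 against 91.3 for RPL22 in untreated Empty and at 59.2 against 80.7 in untreated NeuT.

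The third copy, RPL39L (ENSG00000163923, chromosome 3, 187120948 to 187180908), is best known from male germ cells and from tumours. It was weakly expressed, at 8.21 and 7.94 CPM in untreated Empty, 9.21 and 7.88 in treated Empty, 4.39 and 4.55 in untreated NeuT, and 4.68 and 3.59 in treated NeuT. Again the lines did not overlap. The difference without drug was -0.85 ± 0.14 (adjusted p = 9e-05 in edgeR's test). Its parent RPL39, a very small protein that lines the exit tunnel of the ribosome, rose from 38.5 and 37.4 CPM to 52.0 and 55.7, by 0.51 ± 0.12 (adjusted p = 0.0041), and with its pseudogenes added the difference was again 0.51. The copy and its parent thus moved in opposite directions, and RPL39L went from 43.9 ± 0.12% of RPL39 per length to 17.1 ± 0.40%. Pseudogenes named after RPL39 held 279% of its counts, and with these added RPL39L went from 11.2 ± 0.13% to 4.41 ± 0.0037%. Deposited lengths of 1033 bases for RPL39L and 2128 for RPL39 were used, while both have 153 coding bases.

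The remaining copies differed little. RPL26L1 gave 39.5 and 37.1 CPM in untreated Empty and 37.1 and 39.1 in untreated NeuT (difference -0.01 ± 0.07), while RPL26, its parent, rose by 0.29 ± 0.10 (adjusted p = 0.027 in edgeR's test), a call lost without either untreated Empty library or untreated NeuT replicate 1 (adjusted p 0.053 to 0.18). Pseudogenes named after RPL26 held 193% of its counts, and other genes covered 14.5% of its exons. RPL7L1, which is thought to act mostly in ribosome assembly, differed by -0.05 ± 0.05 and RPL7 by 0.08 ± 0.06, and neither passed the test. RPL36AL differed by -0.02 ± 0.08. RPL36A, with 1.76 to 3.14 CPM without drug, differed by -0.60 ± 0.25 from its own counts and by 0.32 (adjusted p = 0.0213) once its pseudogene counts were added, so its direction cannot be given. RPL3, the conserved core protein next to the peptidyl transferase centre, differed by 0.01 ± 0.05, and RPS4X by 0.06 ± 0.06.

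**Figure D3:**
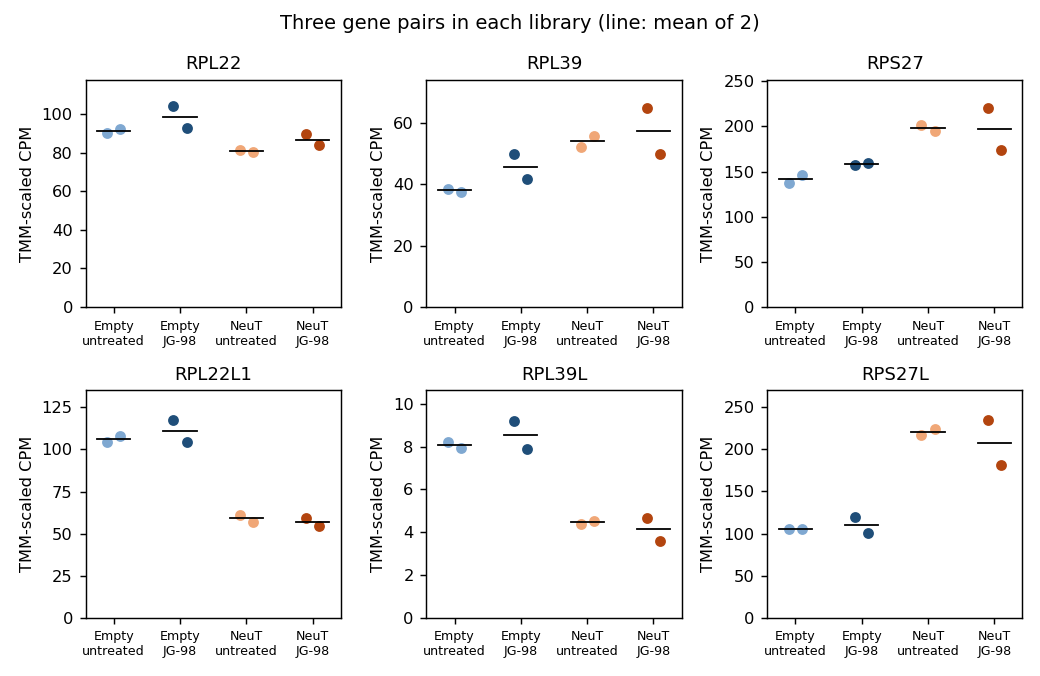
TMM-scaled CPM of 3 parent genes (top row) and their copies (bottom row) in the 4 groups, with 1 point per library and a line at the mean of 2. RPL22L1 and RPL39L are lower in all NeuT libraries than in any Empty library, and RPS27L is higher in all of them.

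Among the standard ribosomal proteins, the largest rises after RPS27L included those of RPL27, RPL39, RPS27, RPL31, RPL37A and RPL23A. RPL27 (ENSG00000131469, chromosome 17, 42998273 to 43002959) measured 457 and 434 CPM in untreated Empty and 666 and 632 in untreated NeuT, a log2 difference of 0.54 ± 0.09 (adjusted p = 0.00034 in edgeR's test). RPL31 and RPL23A both lie at the rim of the exit tunnel, where factors that act on the new chain dock. RPL31 gave 257 and 254 CPM against 344 and 355 (0.45 ± 0.06), and RPL23A 75.8 and 79.9 against 107.5 and 99.6 (0.41 ± 0.08). RPL37A, a small zinc-binding protein, gave 413 and 418 CPM against 561 and 575 (0.45 ± 0.05). For each of these genes the untreated libraries of the lines did not overlap.

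The proteins with roles outside the ribosome core were mixed. The acidic stalk that recruits elongation factors is formed by RPLP0, RPLP1 and RPLP2. RPLP2 rose by 0.26 ± 0.07 (adjusted p = 0.0046 in edgeR's test), while RPLP1, at 0.19 ± 0.07 (0.051), and RPLP0, at 0.14 ± 0.06 (0.066), missed the threshold, although for both of them the untreated NeuT libraries were above the untreated Empty libraries. Of 16 alternatives, 11 called RPLP1 and 8 called RPLP0. RPL11 rose from 693 and 665 CPM to 844 and 848 (0.32 ± 0.06, adjusted p = 0.0003), and its partner in the 5S particle and in MDM2 binding, RPL5, gave 727 and 724 against 742 and 745 (0.04 ± 0.06, adjusted p = 0.65). RPL10, which joins the large subunit last, rose by 0.24 ± 0.06 (adjusted p = 0.0051), with other genes covering 55.5% of its exons. RPL13A, which also takes part in translational silencing, rose by 0.15 ± 0.06 (adjusted p = 0.042 in edgeR's test). Both calls depended on single libraries, since RPL10 was at 0.21 without untreated Empty replicate 2 (adjusted p = 0.073) and RPL13A lost its call without any 1 of the untreated libraries (adjusted p 0.067 to 0.31). RPS6, the substrate of S6 kinases, differed by 0.12 ± 0.06 (0.13), RPS3, at the mRNA entry channel, by 0.07 ± 0.06 (0.36), the ubiquitin fusion gene RPS27A by 0.19 ± 0.08 (0.077), and RPSA, also known as the laminin receptor precursor, by -0.05 ± 0.07 (0.57). None of these last 4 passed the test with all libraries, while RPS27A was called in 6 of 16 alternatives, RPS6 in 3 and RPS3 in 1.

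Members with shorter coding sequences had larger differences between the lines. Coding lengths were taken from GENCODE 29 for all 82 members. The median log2 difference without drug was 0.36 for the 11 members with at most 300 coding bases, 0.25 for the 18 with 300 to 400, 0.23 for the 22 with 400 to 500, 0.12 for the 8 with 500 to 600, 0.13 for the 16 with 600 to 800, and 0.04 for the 7 longest, none of which was called. Over the 76 members with at least 10000 counts, Spearman's rho between coding length and difference was -0.46, and over 13117 other protein-coding genes it was -0.04 (0.08 under JG-98). Among other abundant protein-coding genes, with an average log2 CPM from 6 upward, the median difference was 0.07 at up to 300 coding bases and 0.02 at 800 to 1300. This relation was noticed in the data, is across genes, which are not independent replicates, and is given as a description. The members share libraries and depth, and how their coding length relates to message length and base composition was not tested.

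The extremes of length show the pattern and its limit. RPL4, which has the longest coding sequence of the members, gave 1674 and 1672 CPM in untreated Empty and 1752 and 1691 in untreated NeuT (0.04 ± 0.05). RPL41, the shortest, gave 52.9 and 46.8 CPM against 45.1 and 43.5 (-0.17 ± 0.19) and did not follow the other short genes.

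**Figure D4:**
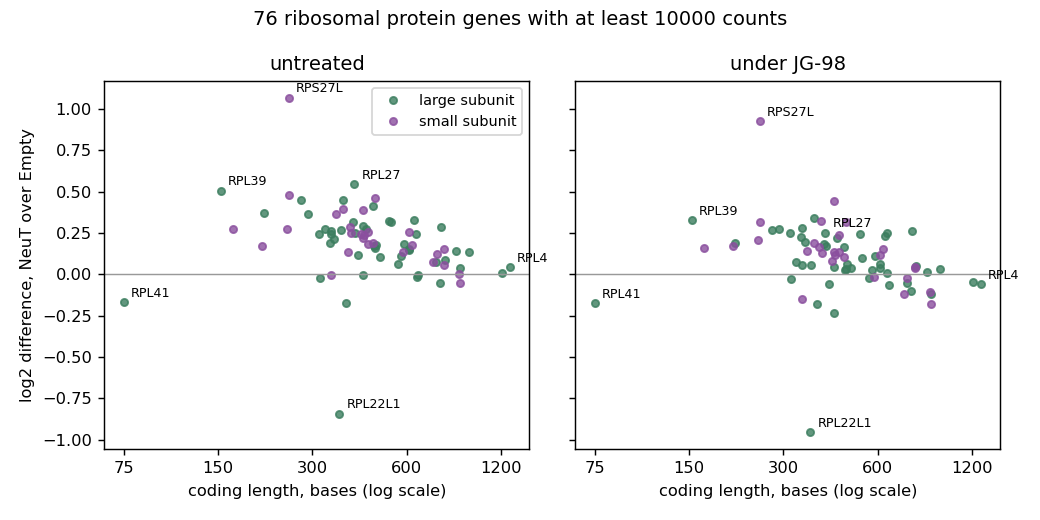
Log2 difference of NeuT over Empty against coding length (log axis, bases) for the 76 members with at least 10000 counts, without drug (left) and under JG-98 (right), with the subunit in colour. Shorter genes lie higher, with a rho of -0.46 on the left and -0.45 on the right (-0.30 without treated NeuT replicate 1 and -0.53 without replicate 2), and RPL41, RPL22L1 and RPS27L lie off the trend.

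Under JG-98 the lines differed in a smaller number of members, and the copies again stood out. Of the 82 members 29 were called (35.4%, against 41.7% of all tested genes), of which 23 rose and 6 fell in NeuT, against a background of 21.7% and 20.0%. The share of called members was thus below that of all genes, and the median difference was 0.08. The treated NeuT libraries lay above the treated Empty libraries for 26 members and below them for 13, against 34.0% and 33.6% of all genes. With total counts in place of TMM scaling the split was 14 higher and 13 lower (17.6% and 25.2% of all genes) and the median 0.003. The result leaned on the treated NeuT libraries, which differed from each other. Without NeuT treated replicate 2 there were 42 rises and 2 falls with a median of 0.20 (18.8% and 17.0% of all genes), and without NeuT treated replicate 1 there were 15 rises and 11 falls with a median of -0.02 (21.1% and 18.6% of all genes). Without Empty treated replicate 2 there were 12 rises and 4 falls (17.7% and 15.6% of all genes). A fit of only the 4 treated libraries gave 15 rises and 2 falls (19.8% and 17.5% of all genes).

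RPS27L was higher by 0.92 ± 0.12 (adjusted p = 0.00023 in edgeR's test), RPL22L1 lower by -0.96 ± 0.07 (8.1e-09) and RPL39L lower by -1.04 ± 0.14 (1.3e-05). Per length, RPL22L1 stood at 256 ± 0.87% of RPL22 in treated Empty and 150 ± 2.07% in treated NeuT, RPL39L at 38.6 ± 0.69% and 14.9 ± 0.05% of RPL39, and RPS27L at 8.06 ± 1.08% and 12.2 ± 0.19% of RPS27, all from the parents' own counts and the unlike deposited lengths. The other falls were those of RPL36A (-0.75 ± 0.26, turning to 0.19 with its pseudogenes added), RPL26L1 (-0.23 ± 0.07), RPSA (-0.18 ± 0.07, adjusted p = 0.04) and RPL22 (-0.18 ± 0.06, adjusted p = 0.034). In 4 other alternatives RPL36A lost its call. With its pseudogenes added, RPL22 differed by -0.02 (adjusted p = 0.83), and without Empty treated replicate 1 by -0.09 (adjusted p = 0.34). RPSA lost its call in 8 of 16 alternatives and was at -0.07 without NeuT treated replicate 2 (adjusted p = 0.36). RPL26L1 lost its call in 3, with -0.17 without Empty treated replicate 1 (adjusted p = 0.15) and -0.18 without NeuT treated replicate 2 (adjusted p = 0.082 in edgeR's test).

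The largest rises after RPS27L included those of RPS19, RPL31, RPL39, RPS12, RPS27 and RPLP2. RPS19, a small subunit maturation protein and the gene most often mutated in Diamond-Blackfan anaemia, measured 695 and 614 CPM in treated Empty and 923 and 854 in treated NeuT, a difference of 0.44 ± 0.06 (adjusted p = 1.7e-05 in edgeR's test). RPS12, a small subunit protein of the beak region, gave 448 and 406 CPM against 536 and 530 (0.32 ± 0.06). Neither gene's libraries overlapped between the lines. Those of RPL39 did, and its call was lost in 6 of 16 alternatives, with a difference of 0.14 without NeuT treated replicate 1 (adjusted p = 0.22) and 0.20 without Empty treated replicate 2 (adjusted p = 0.27). Over the 16 alternatives RPS27 ran from 0.15 to 0.48 and lost its call in 2, and RPLP2 lost its call in 1. Without Empty treated replicate 1 RPS27 was at 0.31, and without Empty treated replicate 2 RPLP2 was at 0.20. RPL27, by contrast with its place without drug, gave 490 and 473 CPM in treated Empty and 641 and 505 in treated NeuT, 0.25 ± 0.09 with the higher value from replicate 1. The 2 comparisons of the lines use different libraries. In all, 22 members were called higher in both, which is 53.7% of the 41 without drug and 95.7% of the 23 under JG-98, 3 were lower in both (RPL22L1, RPL39L and, from its own counts alone, RPL22), none was called in opposite directions, and 34 were called in neither. Over all tested genes 16.9% were higher in both, 15.6% lower in both, 0.017% opposite and 48.8% called in neither. Of all genes higher without drug 79.8% were also higher under JG-98, and of those higher under JG-98 77.9% were also higher without drug.

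The study's own question, how the cells respond to JG-98, was followed for these genes at 12 h. With all 8 libraries no member was called in either line, and in NeuT this count depended on treated replicate 1. In Empty, 0 of 82 members passed (0.339% of all tested genes did, 60 in number), with 12 at an unadjusted p under 0.05 (9.83% of all genes) and a lowest adjusted p of 0.25 in edgeR's test, and DESeq2 and limma-voom also called 0. The median change was 0.07, and 71 members had a positive value. Both treated libraries lay above both untreated ones for 36 members and below them for 2, against 20.9% and 22.2% of all genes. The median was 0.02 without Empty treated replicate 1. With NeuT treated replicate 1 or 2 left out of the common fit, which changes the estimate of the spread, 6 or 5 members were called higher in Empty (1.39% and 1.34% of all genes). In NeuT, 0 of 82 passed (3.01% of all genes, 533 in number), with 2 at an unadjusted p under 0.05 (16.0% of all genes) and a lowest adjusted p of 0.23, again 0 with DESeq2 and limma-voom. The median change was -0.02, and 25 members had a positive value. Without NeuT treated replicate 1, 22 members were called lower (5.15% of all genes were) and the median was -0.11, and without replicate 2, 1 was called higher (1.2% of all genes) and the median was 0.05. The treated libraries lay above the untreated ones for 3 members and below them for 4, against 21.9% and 22.9% of all genes. In the authors' deposited table of each line 0 members were called as well, and its member medians were 0.07 and -0.02.

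The bounds on a response were taken for the well-counted members. Over the 76 with at least 10000 counts, the change in Empty ran from -0.04 (RPS28) to 0.26 (RPL39), and the 95% intervals, each taken as 1.96 standard errors on either side, stayed between -0.35 and 0.49. In NeuT it ran from -0.20 (RPL35) to 0.10 (RPL22), within -0.36 and 0.41. Pseudogenes held 1058% of the counts of RPS28, 279% of those of RPL39 and 158% of those of RPL22, so these ends are uncertain. On the linear scale these intervals reach from -22.0% to 40.8%. The bounds depended on single libraries. With 1 library of the line left out, intervals in Empty reached from -0.52 to 0.64, and values from -0.14 (RPL36AL, without treated replicate 1) to 0.39 (RPL39, without treated replicate 2). In NeuT intervals reached from -0.50 to 0.52, and values from -0.36 (RPL27, without treated replicate 1) to 0.30 (RPL41, without treated replicate 2). RPL39, the most responsive by value, gave 38.5 and 37.4 CPM in untreated Empty against 49.8 and 41.5 under the drug (0.26 ± 0.12, adjusted p = 0.49, under the threshold in 2 of 16 alternatives at 0.0485 and 0.0499), and 52.0 and 55.7 against 64.6 and 49.8 in NeuT (0.09 ± 0.11, adjusted p = 0.79). The treated Empty libraries lay above the untreated ones, and in NeuT they overlapped.

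Among the members with signalling roles, RPS6 gave 1057 and 1015 CPM in untreated and 1193 and 1079 in treated Empty (0.13 ± 0.06, adjusted p = 0.50), and 1133 and 1121 against 1179 and 1054 in NeuT (-0.01 ± 0.06, adjusted p = 0.95). RPL5 changed by 0.11 ± 0.06 in Empty and -0.04 ± 0.06 in NeuT, and RPL11 by 0.15 ± 0.06 and -0.07 ± 0.06. The stalk genes RPLP0, RPLP1 and RPLP2 had values of 0.10, 0.01 and 0.03 in Empty and -0.01, 0.04 and 0.04 in NeuT. RPS27L had 0.06 ± 0.12 and -0.08 ± 0.12, and RPL22L1 0.06 ± 0.07 and -0.05 ± 0.07. RPL39L had 0.08 ± 0.13 and -0.11 ± 0.15. None of these values passed the test with all libraries. Without NeuT treated replicate 1, RPS27L was called at -0.28 (adjusted p = 0.018) and RPL11 at -0.16 (0.035) in NeuT, and without either treated NeuT library RPL11 was called at 0.15 in Empty (0.042 in both fits of edgeR's test).

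The treated libraries did not move as a pair. Against the mean of the untreated libraries of the same line, the member median was 0.12 in Empty treated replicate 1 (75 of 82 members above) and 0.02 in replicate 2 (48 above). In NeuT it was 0.06 in treated replicate 1 (73 above) and -0.11 in treated replicate 2 (6 above), so most members were above the untreated mean in the former and below it in the latter. The treated NeuT libraries were also the least alike of all replicate pairs over all genes, with a chi-square statistic of 22.0 per gene against 4.52 to 8.20 in the other groups.

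**Figure D5:**
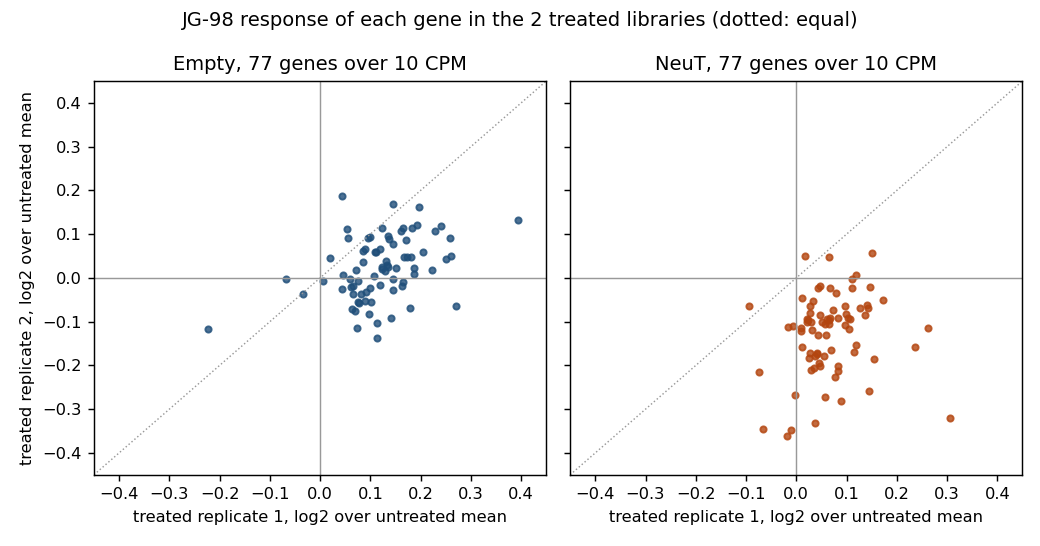
Log2 change with JG-98 of the 77 members over 10 CPM in every library, in treated replicate 1 (horizontal) and treated replicate 2 (vertical), each over the mean of the untreated libraries of its line; the dotted line marks equal changes. In NeuT nearly all points lie right of 0 and below 0, with library medians over all 82 members of 0.06 and -0.11.

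The difference between the drug responses of the lines was tested as an interaction. No member was called, against 0.00565% of all tested genes (1 gene), 9 had an unadjusted p under 0.05 (7.79% of all genes), and the lowest adjusted p was 0.56 in edgeR's test. DESeq2 and limma-voom also called 0. The median was -0.11, with 12 members above 0. Other protein-coding genes of like coding length had negative medians as well, -0.10 at up to 300 bases, -0.08 at 300 to 400 and -0.07 at 400 to 500, and the part of length in the member value was not tested. The lowest well-counted value was that of RPL27 at -0.29 ± 0.12 (adjusted p = 0.61). Leaving out NeuT treated replicate 1 gave 23 members with a lower response in NeuT (1.59% of all genes were lower there) and a median of -0.21, and leaving out replicate 2 gave 0 members and a median of -0.02.

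The lists of other genes of ribosome production differed from each other. Of the ribosome components outside the naming rule, RACK1 (a signalling scaffold on the small subunit) rose in untreated NeuT by 0.16 ± 0.05, while FAU stood at 0.18 ± 0.08 without passing the test, both near the member median of 0.18. The call of RACK1 was lost when any untreated library was left out, where adjusted p was 0.082 to 0.17. Of 55 tested ribosome assembly factors, 2 rose (3.64%) and 37 fell in untreated NeuT, 70.9% in all, against 21.2% higher and 20.8% lower of all genes, with a median of -0.24. NOP2, an rRNA methyltransferase, differed by -1.24 ± 0.32 and TCOF1, the nucleolar treacle protein, by -0.99 ± 0.05, while EIF6, which keeps the subunits apart, rose by 0.39 ± 0.06 and NSA2 by 0.17 ± 0.06. The call of NSA2 was lost without any of the untreated libraries (adjusted p 0.058 to 0.30). Under JG-98 1 rose and 38 fell, against 21.7% and 20.0% of all genes, with a median of -0.28. Of 19 genes of RNA polymerase I and its factors, 8 fell and 0 rose without drug (42.1% called, against 42.0% of all genes), and 7 fell and 0 rose under JG-98 (36.8%, against 41.7%), led by POLR1G (-0.62 ± 0.09). The fall of RRN3, an initiation factor of polymerase I, by 1.08 ± 0.29 without drug leaned on 1 library, since it measured 4.91 and 9.90 CPM in untreated Empty and 3.45 and 3.56 in untreated NeuT. Without Empty untreated replicate 2 its difference was -0.49 (adjusted p = 0.096 in edgeR's test), and its call was lost in 6 of 16 alternatives.

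Other messages with terminal oligopyrimidine tracts were divided. Of 15 tested, 3 rose (20%, against 21.2% of all genes) and 6 fell (against 20.8%) in untreated NeuT, with a median of -0.12, where TPT1, a growth-related protein, rose by 0.40 ± 0.07 and the elongation factor subunit EEF1B2 by 0.22 ± 0.07 (call lost without untreated Empty replicate 2 or either untreated NeuT library, and with total counts, adjusted p up to 0.20), and the histone chaperones NAP1L1 and NPM1 both differed by -0.43 ± 0.06. Of 15 regulators of ribosomal protein synthesis, 5 rose (33.3%) and 3 fell, against 21.2% and 20.8% of all genes. MYC, a driver of ribosome production, rose by 0.62 ± 0.05 and MDM2 by 0.45 ± 0.06, while the S6 kinase gene RPS6KB1 fell by 0.23, a call lost without untreated Empty replicate 1 or either untreated NeuT library (adjusted p up to 0.23). Under JG-98 7 regulators were higher in NeuT and 1 was lower, and of the other oligopyrimidine messages 1 was higher and 5 were lower, again against 21.7% and 20.0% of all genes.

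JG-98 itself changed 1 of the 15 regulators in each line (6.67%, against 0.339% of all genes in Empty and 3.01% in NeuT), and in NeuT also 1 of the 15 oligopyrimidine messages (6.67%) and 4 of the 55 assembly factors (7.27%). For 36 of the assembly factors both treated NeuT libraries lay below both untreated ones, against 22.9% of all genes. EIF4EBP1, a repressor of cap-dependent translation, rose by 0.28 ± 0.05 in both lines (adjusted p = 0.0258 in Empty and 0.00723 in NeuT in edgeR's test). It was the only regulator called in either line. Its call in Empty was lost in 6 of 16 alternatives, among them the fits without any 1 of the Empty libraries (adjusted p 0.10 to 0.56), and that in NeuT in 3 (adjusted p = 0.12 and 0.16 without untreated NeuT replicate 1 or 2, in edgeR's test). No gene of the polymerase I list was called. In NeuT the initiation factor EIF4B rose by 0.23 ± 0.05 and the assembly factor RSL24D1 by 0.31 ± 0.06, and the assembly factors RRS1, MRTO4 and GRWD1 fell by 0.28, 0.28 and 0.25. Leaving out either untreated NeuT library ended all 5 of these calls, with adjusted p from 0.10 to 0.30 in edgeR's test.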

How the data were processed

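RNA was isolated with oligo(dT), per the labels' protocols, from 8 libraries in 4 groups taken from the sample titles. Per the submitters' processing notes, Trim Galore 0.5.0, FastQC 0.11.7, HISAT2 2.1.0, SAMtools 1.9, featureCounts 1.6.3 and limma were used with hg38. The authors deposited raw counts per gene with a gene length, and for each line a table with log2 fold changes, mean log2 expression, a test score, p-values, adjusted p-values and natural log odds. Whether strand was used and how multi-mapped reads were treated is not given in the sources used here. No column was left without a sample (0).

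The deposited counts went unchanged into edgeR 4.0.16 under R 4.3.3 (filterByExpr with a minimum of 10 counts and a total of 15, TMM, robust quasi-likelihood, 1 coefficient per group, all 8 libraries), with Benjamini-Hochberg adjustment over 17693 genes and a threshold of 0.05. With 2 libraries against 2, an exact two-sided permutation test cannot go below 0.333, so the tests draw on the spread pooled over genes. Standard errors are the log2 difference divided by the square root of F. A count of 0 allows up to 3 counts per library, 0.0528 to 0.0803 CPM, and covers counting error only. Gene symbols were found for 60261 identifiers. Scripts were tested on simulated data.

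Named members were the 8 largest called rises and 8 largest called falls of each comparison, RPLP0, RPLP1, RPLP2, RPSA, RPS6, RPL5, RPL11, RPS3, RPL10, RPL13A, RPS27A and members with a copy, and from each of the 5 lists (other ribosome components, other oligopyrimidine messages, assembly factors, RNA polymerase I, regulators) the 2 largest called rises and falls; some genes this rule takes are not reported here. RPL4 and RPL41, as ends of the length range, RPL8 and RPS12 for their levels, GRWD1, 5 low-count members and the members at the ends of a range were named after their values were seen. The members and lists were chosen with earlier results of these data known. Alternatives were RLE factors, total counts, no filter, DESeq2 1.42.0, limma-voom (limma 3.58.1), a replicate block, fits of 4 libraries, pseudogene counts added to members, and each library left out. A narrower naming rule and medians over members with little overlap were added after seeing the data.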

Additional observations from a re-analysis of the deposited data

How the results depend on the processing

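With RLE factors, DESeq2, limma-voom, total counts, the replicate block, added pseudogene counts or 4 libraries (where it could be fitted), 0 members were called for JG-98 in Empty, JG-98 in NeuT and their difference, and without the filter on low counts 1 was called in Empty and 1 in NeuT. The median for NeuT against Empty without drug was 0.21 with pseudogene counts added, 0.11 with total counts and 0.25 over the members with little overlap. With total counts 27 members were higher and 4 lower, against 17.4% and 25.5% of all genes, whose median was then -0.08. Under JG-98 a fit of 4 libraries called 17 members, where 19.8% of all genes were called higher and 17.5% lower. RPL36A turned from -0.60 to 0.32 without drug and from -0.75 to 0.19 under JG-98 when pseudogene counts were added. This alternative counts other loci by construction. Besides this, RPL36A lost its call under JG-98 in 4 of 16 alternatives and gained a call without drug in 5. The narrower naming rule called 43 members without drug (55.1%, against 42.0% of all genes) and 27 under JG-98 (34.6%, against 41.7%).

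Leaving out 1 library at a time gave 0 to 6 members called for JG-98 in Empty (medians 0.021 to 0.11), 0 to 22 in NeuT (-0.11 to 0.052), 0 to 23 for the difference (-0.21 to -0.022), 23 to 59 for the lines without drug (0.18 to 0.20) and 16 to 44 under JG-98 (-0.018 to 0.20). The low values without drug were 23 without Empty untreated replicate 2 and 29 without NeuT untreated replicate 2, and the median of 0.021 in Empty came without Empty treated replicate 1. With either treated NeuT library left out, 6 and 5 members were called higher in Empty. A group left with 1 library is assumed to vary like the others, and the cause of these shifts was not tested.

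Calls of RPL22 were lost in 6 of 16 alternatives without drug and 8 under JG-98, of RPSA in 8, RPL39 in 6 and RPLP1 in 4 under JG-98, and of RPL13A in 5 and RPL26 in 4 without drug. Without drug RPLP1 gained a call in 11, RPLP0 in 8, RPS27A in 6, RPS6 in 3 and RPS3 in 1. EIF4EBP1 lost its call in 6 in Empty and 3 in NeuT, where adjusted p reached 0.56 and 0.16. For JG-98 in NeuT the calls of EIF4B and MRTO4 were lost in 6, of RRS1 and GRWD1 in 5 and of RSL24D1 in 2, and without drug those of RRN3 in 6, RACK1 and NSA2 in 5, EEF1B2 in 4 and RPS6KB1 in 3. Deviations of same-numbered libraries correlated at 0.24 between treated Empty and treated NeuT, and at -0.10 to 0.06 between the other groups. Whether same-numbered treated libraries share a source was not tested. With the replicate block the member medians were 0.18 without drug and 0.07 under JG-98. Low counts limit the precision for RPS9 (1131 in all) and RPS10 (290).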
